A study of Homo sapiens with 6 samples.

Results

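In H1155 cells that express a chimera, 445 regions of open chromatin were detected in every library of both groups and had a signal at least 1.2 times as high in all chimera libraries as in any control library. They are 0.785% of the 56679 regions with a peak in all 6 libraries, and those shared regions are 37.8% of the 149765 regions obtained by merging the 6 peak lists. A region was taken where the lowest of the 3 chimera values was at least 1.2 times the highest of the 3 control values. The value is the authors' fold, which is the pileup of fragments at a peak's summit plus 1, over the library's own local background plus 1. It was divided here by that library's median over the shared regions and is called the scaled fold. These values chose the regions, so the levels below are a description and carry no test.

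The chimera cells were 3 biological replicates labelled chimera by genotype, with TA in their titles, and they were compared with 3 biological replicates labelled control. Both are cultures of H1155, a line from a human lung carcinoma that is known for neuroendocrine features. The labels do not say what the chimera joins, how it was delivered, or whether either line is 1 clone. ATAC-seq uses a transposase that cuts and tags accessible DNA, so a peak marks a stretch of chromatin with few or no nucleosomes in the way. Such stretches include promoters, which tend to be wide and strong and open in many cell types, and enhancers, which tend to be weaker and are where cell states differ most. In a library made from many cells, more cells with an open region and more frequent opening in each cell cannot be told apart.

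Each library had 1 peak list, of 94500 to 99675 peaks in the chimera libraries and 85745 to 109339 in the control libraries. Depth is not given as read counts. The genome-wide background pileup recovered from the lists, which stands in for depth if all lists were called alike, was 3.24 ± 0.516 in the chimera and 2.84 ± 0.274 in the control libraries (SD, n = 3 each). The median fold over the shared regions, by which each library was scaled, was 6.65, 7.24 and 6.71 in chimera replicates 1, 2 and 3 and 7.80, 6.31 and 8.22 in control replicates 1, 2 and 3. Control 2 stood below the other two control libraries in this median and in its number of peaks. The positions did not match the only annotation used here, that of GRCh38.p14. They are given as the lists hold them, counted from 1, and genes, motifs and sequences are not given. For the same reason the lung carcinoma label was not checked against marker genes.

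Most of the 445 regions lay close to the limit that chose them. The ratio of the lowest chimera to the highest control value had a median of 1.26 over the 445 regions, against 0.808 over all shared regions. Between 1.2 and 1.3 lay 297 of them (66.7%), 89 lay between 1.3 and 1.4, 36 between 1.4 and 1.5, and 23 at 1.5 or above. The mean chimera value was 1.503 times the mean control value at the median region and 2.26 times at most. Just inside the limit were a region on chromosome 6 from 19268802 to 19269529, one on chromosome 19 from 39832052 to 39833226 and one on chromosome 2 from 5425737 to 5426402, with ratios of 1.2001, 1.201 and 1.202. Just outside were regions on chromosome 6 from 42754452, on chromosome 12 from 15941223 and on chromosome 11 from 36333644, with mean chimera over mean control values of 1.36, 1.396 and 1.46. The step in ratio across the limit was far below the SD between replicates at these regions, so the edge of the set is a convention.

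**Figure D1:**
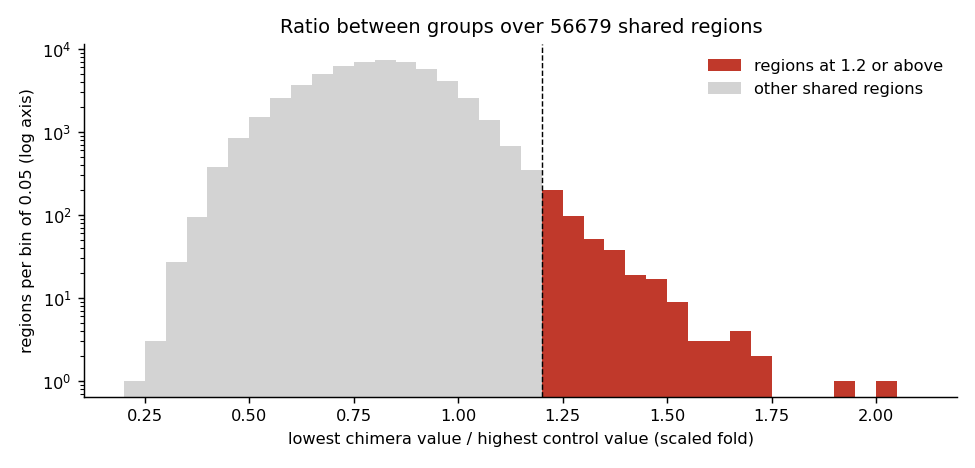
Number of shared regions (log axis) by the ratio of the lowest chimera to the highest control scaled fold. Red bins hold the 445 regions at 1.2 or above (dashed line) and grey bins all other shared regions; the red bins run on from the grey ones without a gap, and the highest ratio is 2.01.

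The number of such regions depended on how libraries were scaled and on each library. The opposite rule, with the lowest control at least 1.2 times the highest chimera value, took 477 regions (0.842%). Without scaling, higher regions numbered 141 and lower ones 721, and omitting it moved the median difference of all shared regions by -0.11 on the log2 scale. With 5 libraries fewer values have to pass, and higher regions numbered 916, 1037 and 899 without chimera 1, 2 and 3. They numbered 897, 1532 and 944 without control 1, 2 and 3. Between 436 and 444 of the 445 regions were still taken in each of those 6 sets. That is nearly fixed in advance, since leaving out a library cannot lower the ratio except through changes in merging and scaling. Control 2 was the highest control library in 183 of the 445 regions, control 1 in 136 and control 3 in 126, and the lowest chimera library was chimera 1 in 155, chimera 2 in 133 and chimera 3 in 157. Groups that did not overlap at all, with no minimum ratio, were found in 5384 shared regions with chimera higher (9.5%) and in 3960 with chimera lower (6.99%).

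The highest ratio, 2.01, belonged to a region of 410 bp on chromosome 6 from 25660779 to 25661188. Its deposited fold was 9.75, 10.1 and 9.96 in chimera replicates 1, 2 and 3, against 5.38, 4.32 and 5.43 in control replicates 1, 2 and 3. The chimera libraries lay close together and far above all control libraries, at a scaled fold of 1.45 ± 0.0504 against 0.678 ± 0.0153 (SD, n = 3 each). Behind these folds stood summit pileups of 40, 37 and 50 fragments in the chimera and 18, 16 and 21 in the control libraries. The summits of the groups, taken as medians, were 3 bp apart.

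A region on chromosome 10 from 100432839 to 100433503 came second, with folds of 8.78, 10.1 and 11.01 in the chimera libraries and 5.09, 4.32 and 5.68 in the control libraries. It was isolated, with the nearest other shared region 117 kb away. On chromosome 4 from 13768385 to 13769255, the folds were 8.80, 11.8 and 8.96 in the chimera and 5.94, 4.57 and 5.68 in the control libraries. There chimera 2 stood above the other two chimera libraries. A further region on that chromosome, from 144359096 to 144359747, had the largest mean difference of the 445, 1.19 on the log2 scale. Its folds were 8.79, 10.5 and 9.59 in the chimera libraries and 3.396, 4.83 and 5.68 in the control libraries. The control libraries spread widely there, since the scaled fold was 1.398 ± 0.0679 in the chimera and 0.630 ± 0.173 in the control libraries (SD, n = 3 each).

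On chromosome 1 from 176795407 to 176795805, a region of 399 bp had folds of 10.03, 10.3 and 9.62 in the chimera and 6.19, 5.23 and 6.87 in the control libraries. Its pileup was 72, 63 and 76 in the chimera against 27, 24 and 31 in the control libraries. The pileups differed more than the folds, because the local background was also higher in the chimera libraries, at 6.28, 5.24 and 7.0 against 3.52, 3.78 and 3.66. The region on chromosome 5 from 9765500 to 9766028 showed folds of 10.2, 11.5 and 9.65 in the chimera and 4.53, 4.32 and 7.04 in the control libraries. Control 3 alone narrowed the gap there. A region of 401 bp on chromosome 22 from 22434718 to 22435118 was weaker in both groups, with 7.21, 7.71 and 7.94 in the chimera and 5.0, 4.03 and 4.47 in the control libraries.

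On chromosome 15 from 71952774 to 71953492 the folds were 8.08, 9.42 and 6.71 in the chimera and 3.96, 3.81 and 3.95 in the control libraries. Here the control libraries were tight and chimera 3 sat lowest of its group, at the level of the typical shared region. Folds on chromosome 6 from 120208638 to 120209580 were 9.12, 10.2 and 10 in the chimera and 6.51, 4.57 and 6.92 in the control libraries. The region of rank 10, on chromosome 13 from 32802449 to 32803131, had 8.19, 9.86 and 9.82 in the chimera and 5.66, 4.78 and 5.93 in the control libraries. In all 10 of these regions the chimera values lay around or above the typical shared region and the control values below it.

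**Figure D2:**
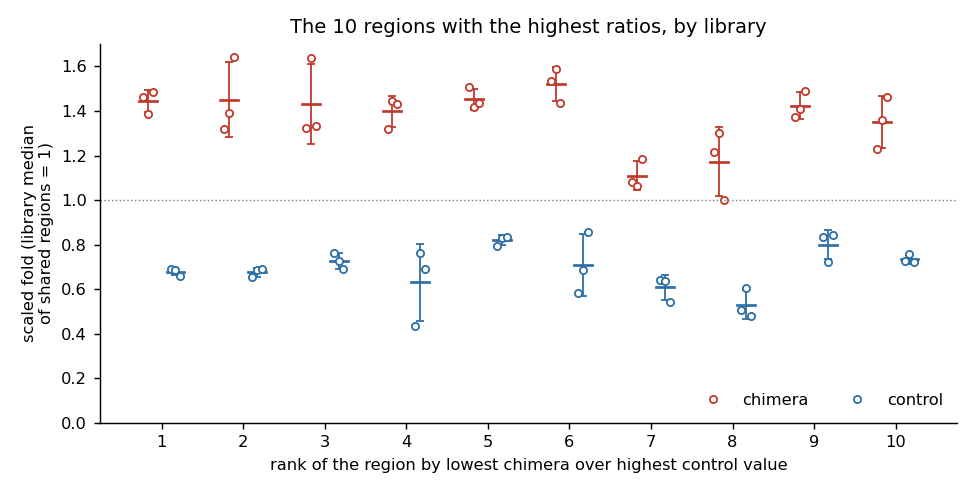
Scaled fold (1 is the library's median over the shared regions) in each library for the 10 regions with the highest ratios, chimera in red on the left and control in blue on the right of each rank. Points are libraries, wide bars the mean and thin bars the SD of 3 libraries; the groups are apart in every region because that is how the regions were chosen, and their spread differs, from 0.0153 to 0.173 in the control libraries.

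The next 10 ranks had ratios from 1.52 to 1.62, with folds of 4.75 to 11.3 in the chimera and 2.94 to 7.16 in the control libraries. They include chromosome 2 from 85316538, chromosome 9 from 92250227 and from 79071077, chromosome 12 from 29896733, chromosome 13 from 99576016, chromosome 2 from 1136713, chromosome 15 from 90541370, chromosome 1 from 211857075, chromosome 10 from 77784006 and chromosome X from 21865285. The one on chromosome 13 from 99576016 had the widest spread in the chimera libraries, with folds of 6.03, 9.90 and 5.87 against 4.25, 3.56 and 3.21 in the control libraries. All 20 regions with the highest ratios had higher pileups in each chimera library than in any control library, without scaling, at 27 to 107 fragments in the chimera and 11 to 50 in the control libraries. They lay on 12 chromosomes, none of them within 100 kb of another of the 445 regions.

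The strongest of the 445 regions by control fold had ratios near the limit. The top 5 had folds of 12.8 to 17.4 in the chimera and 8.38 to 13.2 in the control libraries, and ratios of 1.21 to 1.25. The strongest, on chromosome 1 from 207924933 to 207926419, had folds of 14.4, 15.3 and 14.2 in the chimera and 12.9, 10.9 and 13.2 in the control libraries. Its pileups overlapped between the groups, at 141, 138 and 153 in the chimera and 136, 101 and 180 in the control libraries, and its local background was lower in the chimera libraries relative to each library's median, by 0.23 on the log2 scale. The one on chromosome 2 from 137226363 to 137227108 had 13.5, 17.4 and 14.9 in the chimera and 13.1, 8.38 and 12.8 in the control libraries. The others lay on chromosome 18 from 45479735, chromosome 7 from 44078518 and chromosome 12 from 102513396.

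The widest regions lay near the limit too. The widest of the 445 regions, of 2053 bp on chromosome 1 from 227132961 to 227135013, had folds of 8.24, 10.04 and 9.19 in the chimera and 6.996, 6.33 and 7.30 in the control libraries. It was the one region of 2 kb or more among the 445 (0.225%), against 0.535% of all shared regions. Those next in width lay on chromosome 3 from 128206573, chromosome 6 from 89789955, chromosome 7 from 128489742 and chromosome 1 from 91183017, and the ratios of the 5 ran from 1.21 to 1.24.

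The 445 regions were typical in the chimera libraries and weak in the control libraries. Their median scaled fold was 1.05, 1.06 and 1.04 in chimera replicates 1, 2 and 3, and 0.675, 0.684 and 0.683 in control replicates 1, 2 and 3, where 1 is the median of the shared regions. The groups crossed that median in 121 regions, with all chimera values above 1 and all control values below it (27.2%, against 0.670% of all shared regions). In 135 regions all 6 values stayed below 1 (30.3%, against 30.2%). All chimera peaks had a −log10 q of at least 10 in 433 regions (97.3%, against 75.9% of all shared regions) and all control peaks did in 143 (32.1%, against 75.4%). The rule itself favours the crossing of the median and the contrast in q, which come from the peaks that chose the regions. With the shared regions sorted by mean scaled fold into 10 bins of equal size, the 445 made up 1.22% of bin 2 from the weakest and 0.159% of the strongest bin. The 5 weaker bins held 307 of them (69.0%). With 5 bins of width, they made up 1.18% of the middle bin and 0.327% of the widest. Their median width was 661 bp, against 739 bp for all shared regions. Regions of the opposite rule, with chimera lower, made up 0.794% of bin 2 and 0.0882% of the strongest bin. By width they made up 1.25% of the middle bin and 0.159% of the widest. Low shares in the strongest and widest bins are thus not particular to the 445.

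**Figure D3:**
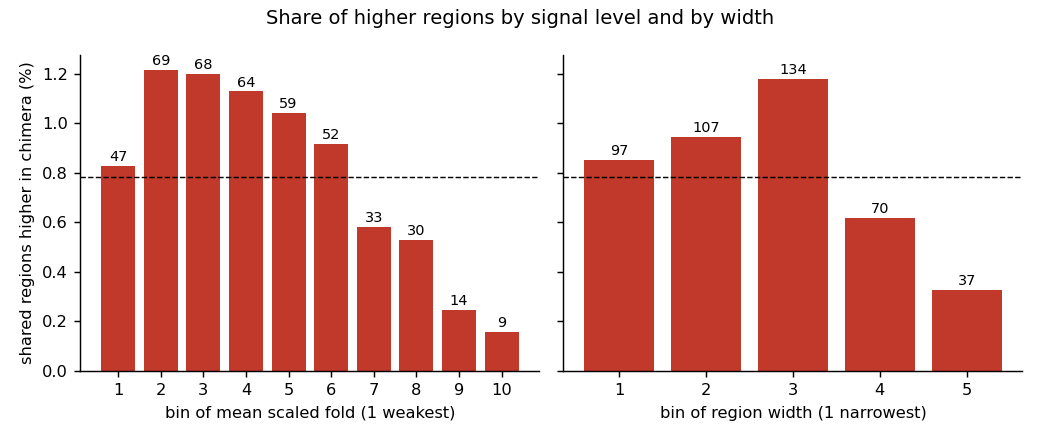
Percentage of shared regions among the 445, in 10 bins of the mean scaled fold over 6 libraries (left) and 5 bins of region width (right), each of equal size; numbers over the bars are regions and the dashed line is 0.785%. The percentage is lowest in the strongest bin (9 regions) and in the widest bin (37 regions). For the opposite rule, not drawn, it is also lowest in these bins, at 0.0882% and 0.159%.

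The median summit pileup of the 445 regions was 46, 47 and 55 fragments in chimera replicates 1, 2 and 3 and 29, 23 and 36 in control replicates 1, 2 and 3. Exact Poisson intervals of 95%, which cover counting error alone, run from 33.7 to 61.4 for 46 fragments and from 19.4 to 41.6 for 29. Those intervals, of chimera 1 and control 1, overlap. The interval of control 1 also overlaps those of chimera 2, from 34.53 to 62.5, and chimera 3, from 41.4 to 71.6. That of control 3, from 25.2 to 49.8 for 36 fragments, overlaps the intervals of all 3 chimera libraries. Only the intervals of chimera 2 and 3 against that of control 2, from 14.6 to 34.51, are apart, and that of chimera 2 barely so. These pileups are not scaled for depth.

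Summit pileup and local background are the parts of the fold that chose the regions, and they are given apart here as a description. Relative to each library's median, the summit pileup was higher by a median of 0.70 on the log2 scale in the 445 regions, against -0.01 over all shared regions. The local background was higher by a median of 0.11, against 0.01 over all. In 435 of the 445 regions (97.8%) the scaled pileups did not overlap between groups, with chimera higher, against 9.28% of all shared regions. In 335 (75.3%, against 1.84% of all) they were also apart by the factor of 1.2. Quartiles of the background difference were 0.0355 and 0.227 on the log2 scale, against -0.0846 and 0.0787 over all shared regions. The mean background was higher in the chimera libraries in 357 regions and lower in 88. Background values did not overlap between groups in 131 regions with chimera higher (29.4%, against 8.11% of all shared regions) and in 17 with chimera lower (3.82%, against 9.48%). In 345 regions the difference in pileup was at least as large as that in fold. For the counts of 357, 88 and 345, shares over all shared regions are not given here, so they are not read as traits of the 445. The chimera background stood at the genome-wide floor in all 3 libraries in 28 regions (6.29%, against 6.73% of all shared regions), and the control background in 84 (18.9%, against 6.46%). All these values come from the peaks that chose the regions.

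**Figure D4:**
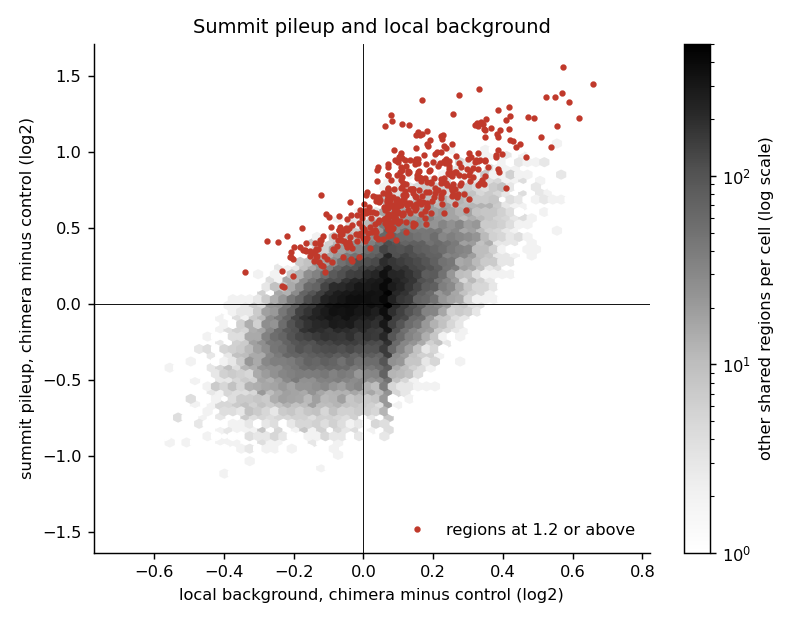
Difference between groups (chimera minus control, log2, each library set to its own median) in summit pileup against that in local background, for the 445 regions (red) and the density of all other shared regions (grey, log scale). The red points lie above the grey cloud, at a median of 0.70 in pileup and 0.11 in background; the dark vertical band holds regions whose background is at the genome-wide floor.

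Peaks were also wider in the chimera libraries, with summits at the same place. The median width of the strongest peak in the 445 regions was 497, 507 and 508 bp in chimera replicates 1, 2 and 3, and 383, 329 and 423 bp in control replicates 1, 2 and 3. Over all shared regions it was 512 ± 11.6 bp in the chimera and 522 ± 65.0 bp in the control libraries (SD, n = 3 each). Chimera peaks were wider than every control peak in 145 of the 445 regions (32.6%), against 4.26% of all shared regions, and narrower than every control peak in 10 (2.25%), against 7.52%. A peak ends where its signal meets the calling threshold, so width is not a measure apart from height. The median distance between chimera and control summits was 13 bp, against 11 bp over all shared regions, and it was at most 50 bp in 362 regions (81.3%, against 85.4%). A single peak in each of the 6 libraries made up 356 regions (80%, against 72.8%).

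Whether a choice made on some libraries holds in others was read from pairs of libraries kept out. For each of the 9 pairs of 1 chimera and 1 control library, regions were chosen by the same rule on the other 4 libraries, and the pair kept out was then compared. All regions considered had a peak in all 6 libraries, so the pair took part in that filter and in the scaling and was kept out of the ratio rule alone. The chimera library of the pair was the higher one in 57.6% to 72.4% of the 1638 to 2664 regions chosen, against 46.4% to 57.1% of all shared regions. The share among chosen regions exceeded the share among all in 9 of 9 pairs, by 11.1 to 18.4 points with a median of 15.2. With chimera 3 and control 3 kept out, for example, 1231 of 1714 chosen regions (71.8%) were higher in chimera 3, against 57.1% of all. The smallest share, 57.6% against 46.4%, came with chimera 2 and control 2 kept out. With control 2 kept out beside chimera 1 or 3, the shares were 63.8% and 64.4%, against 48.6% and 49.0%. With control 1 kept out they were 71.4%, 72.2% and 72.4% for chimera 1, 2 and 3, against 55.5%, 53.8% and 55.8%. With control 3 they were 68.9% and 69.8% for chimera 1 and 2, against 56.7% and 55.1%. Pairs with control 2 thus gave the lowest shares, among chosen and among all regions. The median difference in a pair kept out was 0.06 to 0.21 on the log2 scale, against -0.03 to 0.06 over all shared regions. In the 445 regions chosen on all 6 libraries it was 0.59, which includes the gain from choosing. The 9 pairs draw on the same 6 libraries and are not 9 separate checks, so no p is given. The 445 regions belong to each of these 9 larger sets, and are higher in the chimera library of each pair, by construction. The shares thus describe the larger sets and are no check of the 445 themselves. Regions of the opposite rule were not compared in pairs kept out.

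**Figure D5:**
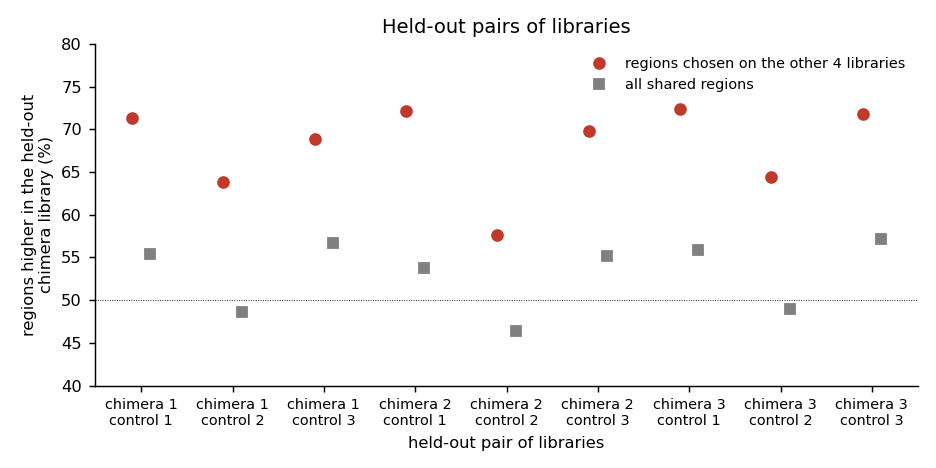
Percentage of regions with a higher scaled fold in the chimera than in the control library of a pair that was kept out of the ratio rule, for regions chosen on the other 4 libraries (red) and for all shared regions (grey squares). Red lies above grey in 9 of 9 pairs, and the lowest red point, 57.6%, belongs to the pair of chimera 2 and control 2; the vertical axis runs from 40 to 80%.

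The 445 regions were spread over all 23 chromosomes used, at 0.353% of the shared regions of chromosome 17 (10 regions) to 1.43% on chromosome 21 (9 regions). Chromosome 1 held 54, chromosome 3 held 33 and chromosomes 2 and 11 held 29 each. The median difference in scaled pileup between groups was between -0.02 and 0.01 on the log2 scale on every chromosome, and that in scaled fold was between 0.02 and 0.04.

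Few of the regions lay beside each other. Within 100 kb of another of the 445 lay 43 regions (9.66%), against 5.59% of all shared regions. They formed 20 groups, and 402 regions stood alone. The largest group held 4 regions on chromosome 1 between 64260003 and 64380739. The first, from 64260003 to 64260452, had folds of 4.62, 4.36 and 4.11 in the chimera and 3.43, 2.86 and 2.85 in the control libraries. The last, from 64379993 to 64380739, had 4.77, 4.49 and 4.23 in the chimera and 3.64, 2.71 and 3.37 in the control libraries. All 4 were weak in both groups. A group of 3 lay on chromosome 6 between 112247868 and 112331967. The closest pair, on chromosome 6 from 56671234 to 56671571 and from 56673649 to 56674051, was 2.08 kb apart. Its folds were 6.25, 6.64 and 5.86 in the chimera and 3.99, 4.57 and 4.67 in the control libraries for the first, and 8.55, 10.6 and 8.72 against 6.50, 5.30 and 7.85 for the second.

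Near regions detected in chimera libraries alone, of which there were 930, lay 9 of the 445 regions at up to 10 kb (2.02%, against 1.15% of all shared regions). Near regions detected in control libraries alone lay 11 (2.47%, against 1.94%). Closest to one found in chimera libraries alone, at 0.421 kb, was a region on chromosome 1 from 208446817 to 208447313. It had folds of 6.34, 6.62 and 6.54 in the chimera and 5.13, 4.29 and 4.50 in the control libraries. With 9 and 11 regions these shares are imprecise, with exact binomial intervals of 0.929% to 3.804% and 1.24% to 4.38%. Distance to the nearest other shared region had a median of 8.03 kb, against 9.08 kb over all shared regions.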

How the data were processed

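ATAC-seq peaks of 3 chimera and 3 control libraries of H1155 were used as the authors deposited them, 1 MACS2 narrowPeak list per library, per the file names. The deposited fold is a ratio of summit pileup plus 1 to local background plus 1. Each deposited −log10 p or q-value refers to a peak within its own library. The deposited score column was not used. Caller settings, aligner and filters: not given in the sources used here. HOMER 4.9 and GRCh38 are named, with no role, per the submitters' processing notes. The lists did not match that build. Peaks reach position 249239990 on chromosome 1, past the last protein-coding gene of GRCh38.p14 there. That position relative to genes does not by itself name the build of the lists.

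Peaks on chromosomes 1 to 22 and X were merged on an overlap of 1 bp or more. The highest fold per region and library was divided by the library's median over regions found in all 6. Pileup and background at each summit were solved for from the fold and the −log10 p of the peak, with the Poisson model that MACS2 uses, to within 0.005 in −log10 p, and pileups and backgrounds were set to each library's median after adding 1 where log2 differences are given. The steps were tested on simulated data. Python 3.11.15, numpy 2.4.6, pandas 2.3.3 and scipy 1.17.1 were used.

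The regions and the measures were chosen with earlier results of these data known. Named regions are the 20 highest ratios, the 5 with the highest control fold, the 5 widest, 3 just inside and 3 just outside the limit; group members and neighbours on chromosomes 1 and 6 were named after their values were seen. Replicate numbers were not used as pairs in the main choice. Deviations of same-numbered libraries correlated at -0.00547, -0.0592 and -0.0145 over shared regions, and those of other pairs at -0.0303 to 0.0437. These values cannot show whether libraries were prepared in pairs. Planned links to genes, marker lists and motifs needed a genome of the lists' build and were not run.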

Additional observations from a re-analysis of the deposited data

How the results depend on the processing

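The set of 445 regions moved with the settings. It held 141 regions without scaling, 1043 with the summit pileup in place of the fold, 130 with only peaks whose −log10 q reached 10, 1460 and 23 at ratios of 1.1 and 1.5, and 897 to 1532 with 1 library left out. With the replicate number as a block (each chimera library against the control library of its number), 1092 regions passed, all 445 among them by construction. Quantile normalization, the median over all peaks, the mean over peaks and merging within 1 kb gave 390 to 505. The gain in pairs kept out (15.2 points) was 22.7 points without scaling, 25.6 with pileup and 11.6 with peaks reaching −log10 q of 10. At ratios of 1.1 and 1.5 it was 12.9 and 28.9 points. Without scaling, the median share was 54.6% of chosen regions against 29.6% of all, beside 69.8% against 55.1% with scaling. The larger gain there thus went with a lower share among chosen regions. The gain was 12.4 points with the replicate block and 6.63 to 13.4 with 1 library left out, and it kept its sign in all 16 settings. All settings reuse the same libraries, so that sign is not replication. The median width below that of all shared regions (-78 bp) was -130, -29, -135 and -22 bp without scaling, with pileup, with peaks reaching −log10 q of 10 and at 1.1, and -188.5 bp with merging within 1 kb; without 1 library it was -82 to -51 bp. Pileups apart between groups (97.8%) made up 100% with pileup, which is fixed by that choice, and 100% at 1.5. They made up 81.6% at 1.1, 85.9% with the mean over peaks, 82.1% with the replicate block and 93.0% to 98.1% without 1 library. The causes were not tested. The share within 100 kb of another such region (9.66%) was 1.42% without scaling and 20.3% with pileup. Pileup and 100 kb were measures added after the data were seen. A summit pileup of 20 to 60 fragments limits what a single region can show.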

Other observations

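In scaled fold, the nearest shared neighbours of the 445 regions did not lean towards the chimera within 10 kb. At 10 to 100 kb they leaned slightly towards it. Within 1 kb lay 57 such neighbours, none of them among the 445, and 19 (33.3%) had a higher mean scaled fold in the chimera libraries, against 61.3% of the nearest neighbours within 1 kb of all shared regions. Their median difference, chimera minus control, was -0.04 on the log2 scale for the fold and -0.01 for the summit pileup, beside 0.05 for the local background, which neighbours so close share with the region itself. For all shared regions the same values were 0.05, -0.01 and -0.04. Among neighbours 1 to 10 kb away 50.3% of 183 were higher, against 56.5%, and 10 to 100 kb away 57.3% of 171, against 52.8%. Their median log2 difference in fold was 0.0022 and 0.0588 at these distances, against 0.0313 and 0.0143. In summit pileup it was 0.0182 and 0.0273, against -0.0050 and -0.0076. The part of the shared background in the shares and in the fold was not tested.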
